A study of Homo sapiens with 6 samples.

Results

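The genes described here are the 2 coactivators of the Hippo pathway, YAP1 and WWTR1 (which encodes TAZ), the 4 TEAD transcription factor genes they act through, and 4 genes known as TEAD targets or pathway regulators, AMOTL2, AJUBA, LATS2 and ANKRD1. They were taken by symbol, through the Ensembl gene IDs of GENCODE release 29, and all 10 were found among the 58735 genes of the table. The 6 libraries are mRNA libraries, read from both ends, of 2 human prostate cancer lines. One, C4-2B MDVR, descends from C4-2B cells and resists the prostate cancer drug enzalutamide; the other, H660 (NCI-H660), is of neuroendocrine prostate cancer. In either line, cells received a control siRNA, siRNA 1 or siRNA 2 against PLXND1, the gene of the semaphorin receptor Plexin D1, and each of these 3 treatments gave a single library. Nothing in the labels says that the libraries were separate cultures, so p-values measure the spread between these libraries only, which may be technical.

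YAP and TAZ carry no DNA-binding domain and reach promoters and enhancers by binding TEAD proteins. The Hippo kinase cascade, in which MST kinases activate LATS kinases, phosphorylates YAP and TAZ and holds them in the cytoplasm or sends them for degradation. Several TEAD targets act back on the pathway: LATS2 encodes one of the inhibiting kinases and AMOTL2 an angiomotin that binds YAP. Loss of YAP1 expression is a known feature of many small-cell and neuroendocrine cancers. The messenger levels given here say nothing of phosphorylation or of where the proteins sit.

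TEAD proteins bind the letters GGAATG or, on the other strand, CATTCC, and 5 of the 8 genes with a RefSeq start window held that word. RefSeq windows of GRCh38.p14, from 250 bases before to 50 bases after a gene's start, were at hand for YAP1, WWTR1, TEAD2, TEAD3, AMOTL2, AJUBA, LATS2 and ANKRD1, and not for TEAD1 and TEAD4. With 12 windows for these 8 genes, 5 windows of 5 genes held a match, while 14.0% of all 35116 windows and 16.7% of all 27305 genes did. The 4 target genes each held at least 1 match, and so did YAP1, whereas WWTR1, TEAD2 and TEAD3 held none. The windows at the first starts of AMOTL2 and AJUBA held none. Of the 250 bases before the start in the matched windows, annotated exons of the same gene covered 250 for AJUBA, 189 for ANKRD1 and 147 for AMOTL2, and 0 for YAP1 and LATS2. A match describes letters in the window, not a bound site, and the absence of one says nothing about TEAD binding elsewhere. The matches are shown with their surroundings, 30 bases each, since the levels of YAP1 and of the 4 target genes are followed below. Capitals mark the 6 letters searched.
YAP1, chr11:102110273-102110302, plus strand, 162 bases before the start: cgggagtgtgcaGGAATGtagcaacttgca
AMOTL2, chr3:134374499-134374528, minus strand, 69 bases before the second of its starts: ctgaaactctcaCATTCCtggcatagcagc
AJUBA, chr14:22976884-22976913, minus strand, 59 bases before the second of its starts: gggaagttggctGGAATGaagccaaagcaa
LATS2, chr13:21061560-21061589, minus strand, 10 bases after the start: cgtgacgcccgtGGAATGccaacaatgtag
ANKRD1, chr10:90921290-90921319, minus strand, 220 bases before the start: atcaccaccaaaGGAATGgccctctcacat
ANKRD1, chr10:90921198-90921227, minus strand, 128 bases before the start: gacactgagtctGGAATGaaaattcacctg

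The libraries held 17655802 to 24105369 fragments assigned to genes, recovered from the steps of the deposited values. PLXND1 was at 21.2% and 41.8% of its control with siRNA 1 and siRNA 2 in C4-2B MDVR, and at 83.5% and 82.6% in H660. The labelled lines matched their markers: neuroendocrine genes summed to 704 to 734 FPKM in H660 and to at most 5.48 FPKM in C4-2B MDVR, where CHGB and INSM1 had no fragment. Of the markers of other cells, basal genes summed to at most 1.22 FPKM, leukocyte genes to at most 0.136 FPKM and stromal genes to at most 5.74 FPKM in any library. The endothelial gene CDH5 was at 7.42 to 9.93 FPKM in H660, with PECAM1 at most 0.0350 FPKM. FPKM divides the fragments of a gene by its exon length and by the size of the library, so it can be compared between genes.

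YAP1 had the highest mean level of the 10 genes in C4-2B MDVR and was 9.51-fold lower in H660, where the levels of YAP1 and WWTR1 overlapped. YAP1 (chromosome 11, 102110461 to 102233423, plus strand, GRCh38) was at 12.6, 22.0 and 13.8 FPKM in the C4-2B MDVR control, siRNA 1 and siRNA 2 libraries. In H660 the same 3 libraries had 1.51, 1.85 and 1.73 FPKM. Every C4-2B MDVR library was above every H660 library, with means of 16.1 ± 5.11 and 1.70 ± 0.171 FPKM (SD, n = 3). Here and below, the mean and SD of a line span its control and both siRNA libraries, so they include any knockdown difference. In RNA from whole cultures, fewer expressing cells and less RNA per cell cannot be told apart. On the log2(FPKM + 1) scale the line difference, H660 minus C4-2B MDVR, was −2.63 ± 0.19 (SE, limma with Benjamini-Hochberg adjusted p = 6.64e-05). An exact two-sided permutation test over the libraries gave p = 0.1, which is the smallest that 3 against 3 can give.

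WWTR1 showed the opposite order. The gene (chromosome 3, 149517235 to 149736714, minus strand) was at 0.0745, 0.0472 and 0.0146 FPKM in C4-2B MDVR, from 13, 8 and 2 fragments. In H660 it was at 1.57, 2.47 and 1.99 FPKM, from 327, 488 and 432 fragments. The line difference was 1.52 ± 0.15 (SE, limma adjusted p = 0.000231), a scale that understates the change of so low a gene. Over the pooled fragments of each line the ratio was 41.8 (95% interval 27.8 to 66.2, counting error only). The antisense gene WWTR1-AS1 shares 795 exon bases with it and reached 0.343 FPKM in H660. The submitters' notes do not say whether counting used strand.

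The summed coactivator level had a different make-up in the 2 lines. YAP1 gave 99.7% ± 0.253 of the summed YAP1 and WWTR1 level in C4-2B MDVR and 46.1% ± 3.12 in H660 (SD, n = 3). The sum itself was 16.2 ± 5.11 FPKM against 3.71 ± 0.618 FPKM, and the lines did not overlap in either measure (exact permutation p = 0.1 for each, the smallest possible).

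**Figure D1:**
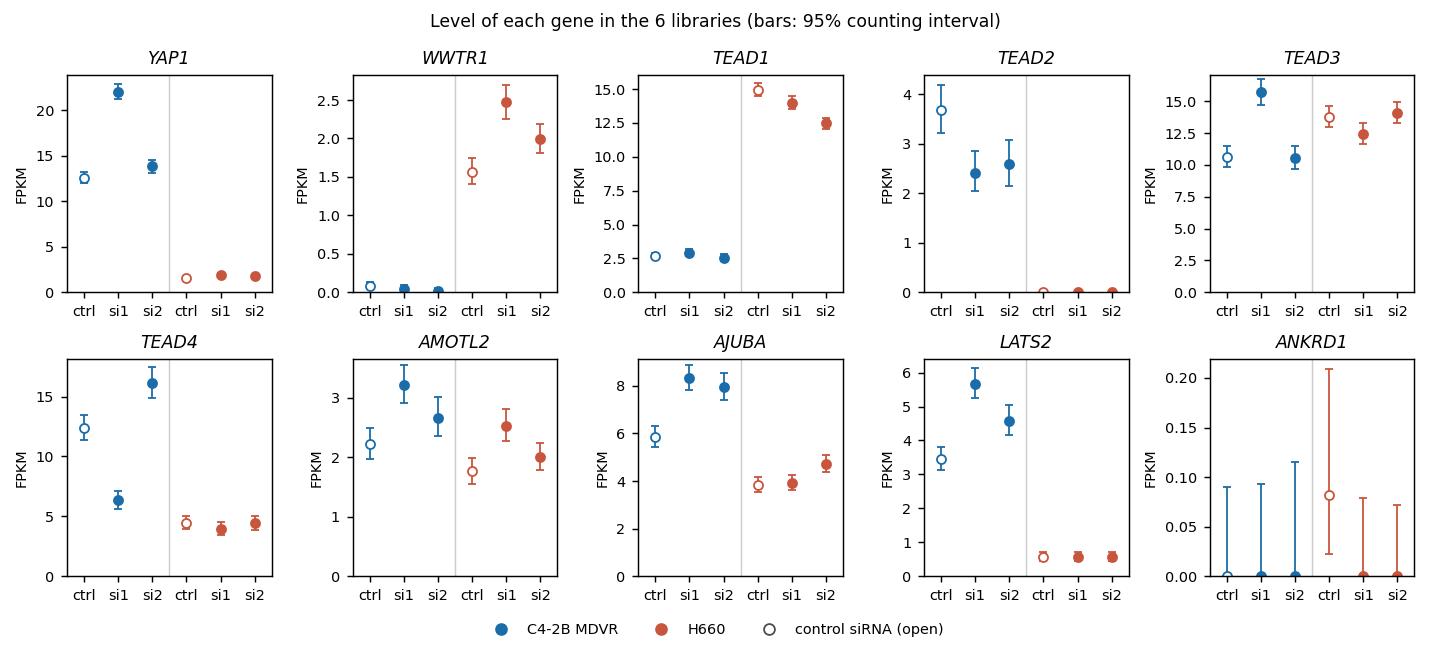
FPKM of each of the 10 genes (vertical axes, each from 0) in the control (ctrl), siRNA 1 (si1) and siRNA 2 (si2) libraries of C4-2B MDVR (blue) and H660 (red), with open points for the controls and bars for 95% Poisson intervals of the fragment numbers. YAP1, TEAD2, TEAD4, AJUBA and LATS2 lie higher in all 3 C4-2B MDVR libraries, WWTR1 and TEAD1 in all 3 H660 libraries, and TEAD3 and AMOTL2 overlap.

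The summed level of the TEAD genes overlapped between the 2 lines, while the shares of TEAD1, TEAD2 and TEAD4 in it did not. Their levels summed to 29.5 ± 2.20 FPKM in C4-2B MDVR and 31.5 ± 1.45 FPKM in H660 (SD, n = 3), and the 2 lines overlapped (exact permutation p = 0.3). TEAD1 gave 9.27% ± 1.36 of that sum in C4-2B MDVR and 43.8% ± 3.09 in H660, without overlap (exact permutation p = 0.1, the smallest possible). TEAD4 gave 38.7% ± 14.1 in C4-2B MDVR and 13.6% ± 0.629 in H660, and TEAD2 gave 9.82% ± 2.36 and 0%. TEAD3 took 42.3% ± 13.2 and 42.6% ± 2.47. The ratio of summed coactivator to summed TEAD level was 0.557 ± 0.214 in C4-2B MDVR and 0.118 ± 0.0245 in H660.

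TEAD1 (chromosome 11, 12674591 to 12944483, plus strand) was at 2.67, 2.93 and 2.54 FPKM in the C4-2B MDVR control, siRNA 1 and siRNA 2 libraries and at 14.9, 14.0 and 12.5 FPKM in those of H660. The lines were 5.08-fold apart, and the difference passed the test (1.99 ± 0.11, limma adjusted p = 2.96e-05). TEAD2 (chromosome 19, 49340595 to 49362457, minus strand) was at 3.67, 2.42 and 2.58 FPKM in C4-2B MDVR, from 497 fragments in all, and had 0 fragments in each H660 library. Against a floor of 3 fragments per library, TEAD2 was at least 70.8-fold lower in H660 (−1.95 ± 0.14, limma adjusted p = 7.03e-05). CD37, on the opposite strand, shares 319 exon bases with TEAD2 and had 2.55, 1.78 and 1.36 FPKM in C4-2B MDVR and 0 in H660, so reads of that stretch cannot be told apart without strand.

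TEAD3 (chromosome 6, 35473597 to 35497076, minus strand) was at 10.6, 15.7 and 10.6 FPKM in C4-2B MDVR and at 13.8, 12.4 and 14.1 FPKM in H660. The groups overlapped and the difference did not pass (0.14 ± 0.17, limma adjusted p = 0.497). Without the siRNA 1 library of C4-2B MDVR it was 0.32 (limma adjusted p = 0.0355), still short of 2-fold. TEAD4 (chromosome 12, 2959330 to 3040673, plus strand) was at 12.4, 6.34 and 16.1 FPKM in C4-2B MDVR and at 4.46, 3.97 and 4.42 FPKM in H660. Its C4-2B MDVR libraries spread widely, with siRNA 1 lowest, yet all 3 lay above H660 (−1.17 ± 0.31, limma adjusted p = 0.0143). This call was not kept in 5 alternatives. Without the siRNA 2 library of C4-2B MDVR the value was −0.84. With libraries rescaled to the same summed FPKM of longer nuclear genes it was −0.92. Both were short of 2-fold in FPKM + 1, the scale of the call. Without the C4-2B MDVR control, the H660 control or the H660 siRNA 1 library the adjusted p was 0.0839, 0.0844 and 0.0542.

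**Figure D2:**
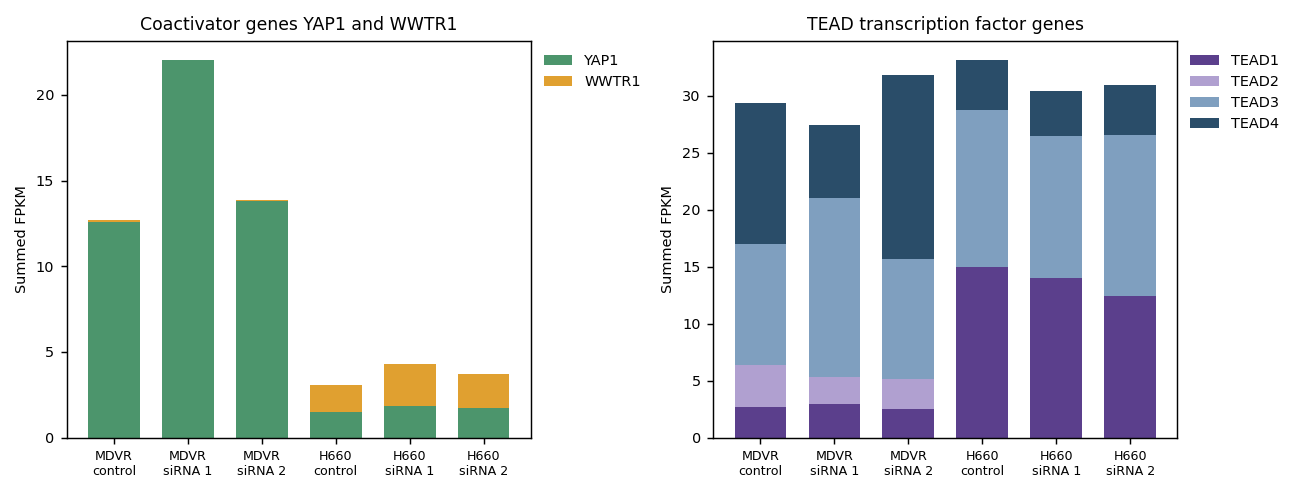
Stacked FPKM (vertical axes) of YAP1 and WWTR1 (left) and of the 4 TEAD genes (right) in each of the 6 libraries. The YAP1 part fills nearly the whole coactivator bar in C4-2B MDVR and 42.9% to 49.1% of it in H660, while the TEAD bars run from 27.4 to 33.2 FPKM in both lines and TEAD1 gives 40.3% to 46.0% of them in H660.

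Of the 4 target genes, LATS2 differed most between the lines. LATS2 (chromosome 13, 20973032 to 21061547, minus strand) was at 3.46, 5.67 and 4.58 FPKM in C4-2B MDVR and at 0.579, 0.557 and 0.564 FPKM in H660, an 8.07-fold difference of the means. It passed the test (−1.81 ± 0.15, limma adjusted p = 0.000126). AJUBA (chromosome 14, 22971174 to 22982642, minus strand), whose LIM protein binds and restrains LATS kinases, was at 5.86, 8.35 and 7.97 FPKM in C4-2B MDVR and at 3.85, 3.93 and 4.73 FPKM in H660. The lines did not overlap and the adjusted p was 0.00293 by limma, but the difference of −0.69 ± 0.12 fell short of 2-fold, so it was not called.

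AMOTL2 (chromosome 3, 134355874 to 134375479, minus strand) was at 2.22, 3.22 and 2.66 FPKM in C4-2B MDVR and at 1.76, 2.53 and 2.00 FPKM in H660. These overlapped (−0.26 ± 0.13, limma adjusted p = 0.116). With quantile normalization the difference was −0.47 (limma adjusted p = 0.016), also short of 2-fold. ANKRD1 (chromosome 10, 90912096 to 90921276, minus strand), which encodes a cardiac and muscle ankyrin repeat protein and is widely used as a readout of YAP activity, had 0 fragments in 5 libraries. It had 4 fragments in the H660 control, 0.0816 FPKM (95% interval 0.0222 to 0.209). A level of up to 0.0588 to 0.0933 FPKM, 3 fragments, could have gone unseen in the libraries with none. ANKRD1 was thus near or below the limit of detection at this depth.

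In all, 6 of the 9 genes that passed the filter on low values were called between the lines, 2 higher in H660 (WWTR1 and TEAD1) and 4 lower (YAP1, TEAD2, TEAD4 and LATS2). The filter, a mean of at least 1 FPKM over the 3 libraries of at least 1 line, kept 15638 genes and left out ANKRD1. WWTR1, TEAD2 and LATS2 passed it through 1 line only, which favours a difference between the lines without fixing a call. Calls needed a limma adjusted p under 0.05 and at least a 2-fold difference in FPKM + 1, which is stricter than 2-fold in FPKM. Of all genes, 20.1% were called higher in H660 and 17.9% lower (38% in all). Lines did not overlap for 7 of the 9 genes and for 74.5% of all genes, with 2 of the 7 higher in H660 (37.1% of all genes) and 5 lower (37.4%). The count of 6 thus stands in a background where differences between these lines are common. Rescaling the libraries to the same summed FPKM of nuclear genes over 300 bases brought the all-gene median to 0.27, from −0.0035 as deposited, with 3945 genes called higher and 2144 lower in place of 3143 and 2803, and voom on the recovered fragments moved that median to 0.17. The 9 differences kept their sign under both, and AMOTL2 was at −0.05 under the rescaling.

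The order of the levels within a line also differed in value. In C4-2B MDVR the means ran from YAP1 (16.1 FPKM) through TEAD3 (12.3), TEAD4 (11.6), AJUBA (7.39), LATS2 (4.57), TEAD2 (2.89), TEAD1 (2.72) and AMOTL2 (2.70) to WWTR1 (0.0455) and ANKRD1. Neighbours in this order overlapped in their libraries except AJUBA and LATS2, and AMOTL2, WWTR1 and ANKRD1. In H660 the means ran from TEAD1 (13.8 FPKM) and TEAD3 (13.4), which overlapped, to TEAD4 (4.29) and AJUBA (4.17), which overlapped, then AMOTL2 (2.10), WWTR1 (2.01) and YAP1 (1.70), which overlapped, and last LATS2 (0.567), ANKRD1 and TEAD2.

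**Figure D3:**
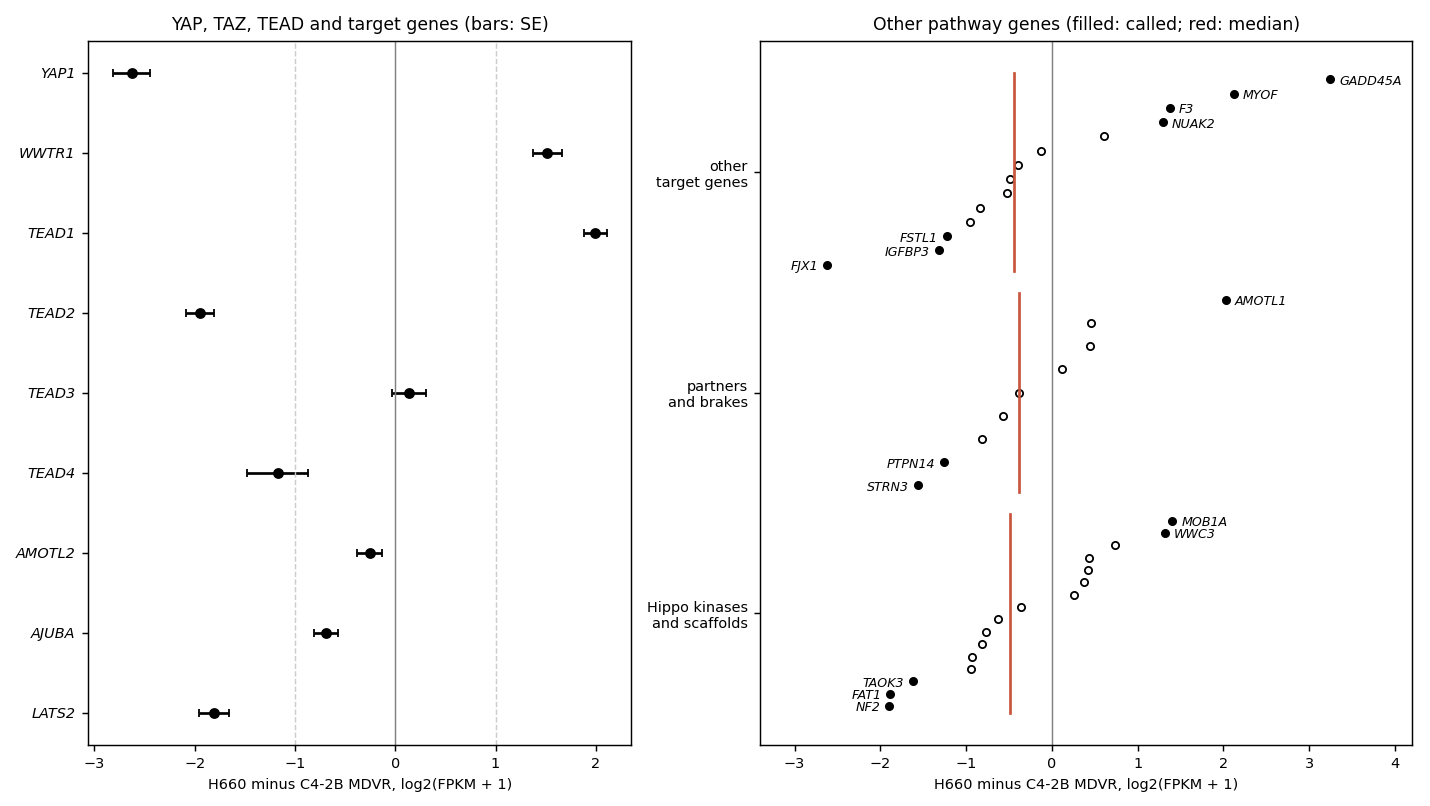
Line difference, H660 minus C4-2B MDVR, in log2(FPKM + 1) (horizontal axes), for the 9 genes that passed the filter (left, bars for the SE, dashed lines at 2-fold) and for the tested members of 3 further pathway lists (right, filled points called, red lines at the list medians). YAP1 at −2.63 and TEAD1 at 1.99 are the outermost of the 9, and GADD45A at 3.25 and FJX1 at −2.62 the outermost on the right.

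The comparison of knockdown with control asks whether lowering PLXND1 moved the pathway's genes. With both siRNAs, 3 of the 4 target genes were above the control in C4-2B MDVR, as 32% of all genes were, and ANKRD1 had no fragment there. The differences were 20.2% to 63.9% in FPKM as deposited, and none of them passed the test. By limma, 0 of 15638 genes passed in C4-2B MDVR (0% called, 921 at an unadjusted p under 0.05, and 0 by voom with 988 at that level). In H660 0 genes passed as well (0% called, 647 unadjusted, and 0 by voom with 500), and for both lines together 0 (0% called, 654 unadjusted, and 0 by voom with 706). Of the 9 genes tested here, 0 had an unadjusted p under 0.05 in any of these. PLXND1 itself, at 21.2% and 41.8% of its control in C4-2B MDVR (−1.37 ± 0.31), did not pass there either. Not passing therefore does not show that a gene did not respond. The fit of each line's effect takes its spread from the knockdown pairs, so each lone control is assumed to vary like them. Each pair is siRNA 1 and siRNA 2, so differences between the siRNAs count as spread. The fit for both lines together also counts as spread how far the effect differs between the lines. All knockdown libraries of a line share that 1 control. The mitochondrial share of all fragments was 3.38% for the control of C4-2B MDVR, against 7.44% and 6.83% with siRNA 1 and siRNA 2, and 8.58% to 9.64% in H660, above every C4-2B MDVR library. Its part in the knockdown differences and in the line differences was not tested.

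LATS2 had the largest difference of the target genes in C4-2B MDVR, at 164% of its control with siRNA 1 (95% counting interval 144% to 186%) and 132% with siRNA 2 (115% to 152%). The change was 0.45 ± 0.18 on the log2 scale (limma adjusted p = 0.865). AJUBA was at 142% (129% to 157%) and 136% (123% to 151%) of its control, 0.42 ± 0.17 (limma adjusted p = 0.865). AMOTL2 was at 145% (124% to 170%) and 120% (101% to 143%), 0.29 ± 0.19 (limma adjusted p = 0.928). The control library was thus the lowest of the 3 for each of these genes. The deposited scaling raises both C4-2B MDVR knockdown libraries against the control. Per recovered total of fragments the ratios stayed above 1 and were 1.30 and 1.24 for AJUBA and 1.33 and 1.09 for AMOTL2.

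In H660 none of these 3 genes passed either, and PLXND1 itself fell short of its control by less than in C4-2B MDVR. LATS2 was at 96.1% and 97.3% of its control, with intervals that reach 134% for both, −0.02 ± 0.18 (limma adjusted p = 1). AJUBA was at 102% (90.6% to 115%) and 123% (110% to 137%). AMOTL2 was at 144% (122% to 169%) and 113% (95.8% to 134%), 0.24 ± 0.19 (limma adjusted p = 1). The interval of AJUBA with siRNA 1 and that of AMOTL2 with siRNA 2 include 100%.

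The difference of YAP1 in C4-2B MDVR lay mainly in the siRNA 1 library. YAP1 was at 175% of the control with siRNA 1 (164% to 186%) and at 110% with siRNA 2 (102% to 118%), and per recovered total the second ratio was 0.999. The siRNA 1 library was 1.59 times the siRNA 2 library (1.49 to 1.70). PLXND1 was also lower with siRNA 1, but each siRNA gave a single library, and whether the levels are linked was not tested. The mean change was 0.44 ± 0.30 (limma adjusted p = 0.931). In H660 YAP1 was at 122% (102% to 146%) and 114% (95.5% to 136%), 0.15 ± 0.30 (limma adjusted p = 1).

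WWTR1 was above its control with both siRNAs in H660, at 157% (136% to 181%) and 127% (110% to 147%), a change of 0.33 ± 0.18 (limma adjusted p = 1). In C4-2B MDVR its 8 and 2 fragments against 13 gave ratios with intervals of 0.228 to 1.65 and 0.0215 to 0.867. The first includes 1 and the second does not, on very few fragments.

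**Figure D4:**
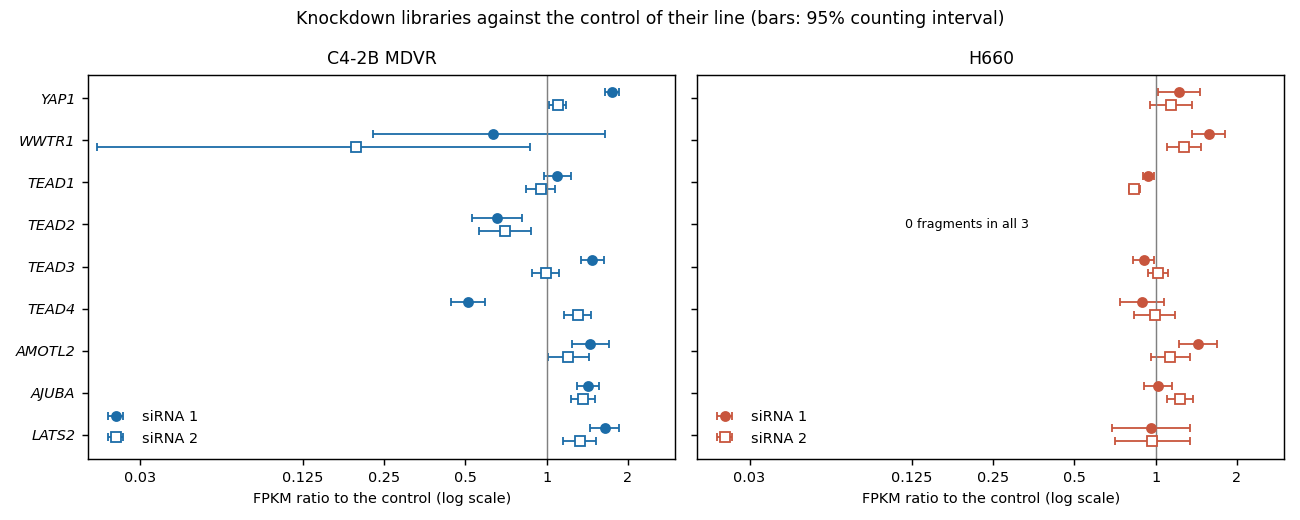
Ratio of the FPKM in each knockdown library to the control of its line (horizontal axes, log scale, 1 marked) for 9 genes in C4-2B MDVR (left) and H660 (right), with filled circles for siRNA 1, open squares for siRNA 2 and bars for 95% binomial intervals of the fragment numbers. In C4-2B MDVR AMOTL2, AJUBA and LATS2 lie to the right of 1 and TEAD2 to the left with both siRNAs, while TEAD4 lies on opposite sides at 0.512 and 1.30.

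Among the TEAD genes, TEAD2 was below its C4-2B MDVR control with both siRNAs, at 65.8% (53.0% to 81.4%) and 70.3% (56.0% to 87.8%), with a change of −0.42 ± 0.16 (limma adjusted p = 0.849). CD37, which overlaps it, was lower in the same libraries. The TEAD4 values lay on both sides of the control: the gene was at 51.2% of the control with siRNA 1 (44.3% to 59.1%) and at 130% with siRNA 2 (116% to 146%), and the 2 knockdown libraries differed by a ratio of 0.393 (0.340 to 0.453). TEAD3 was at 148% (134% to 163%) and 99.2% (88.3% to 111%). TEAD1 was at 110% (97.6% to 123%) of the control with siRNA 1, and with siRNA 2 it fell short of it by 5.05% (interval 83.5% to 108%).

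In H660 TEAD1 was at 93.8% (89.5% to 98.2%) and 83.5% (79.6% to 87.5%) of its control, −0.16 ± 0.17 (limma adjusted p = 1). TEAD3 was at 90.4% (82.6% to 99.0%) and 102% (93.9% to 111%), and TEAD4 at 89.0% (73.8% to 107%) and 99.1% (83.0% to 118%). The spread between siRNA 1 and siRNA 2 was therefore wider in C4-2B MDVR than in H660 for TEAD3 and TEAD4 in value, and that difference in spread was not tested.

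By sign alone, YAP1, AMOTL2, AJUBA and LATS2 were above the control with both siRNAs in C4-2B MDVR (4 of 9, where 32% of all genes were), and WWTR1 and TEAD2 below it (2 of 9, where 25.8% were). In H660 YAP1, WWTR1, AMOTL2 and AJUBA were above (4 of 9, 32.1% of all genes), and TEAD1, TEAD4 and LATS2 below (3 of 9, 38.3%). YAP1, AMOTL2 and AJUBA were above in all 4 knockdown libraries (3 of 9, 10.7% of all genes), and 0 were below in all 4 (10.1%). WWTR1 and LATS2 lay on opposite sides of the control in the 2 lines (2 of 9, 19.7% of all genes). These counts and shares use the deposited scaling, which raises both C4-2B MDVR knockdown libraries against the control. Per recovered total the ratio of YAP1 with siRNA 2 in C4-2B MDVR was 0.999, so its sign there depends on the scaling. The median change of the 9 genes was 0.26 in C4-2B MDVR and 0 in H660, beside 0.02 and −0.01 over all genes. No difference of the knockdown effect between the lines passed: 0 of 15638 genes (0% called, 701 at an unadjusted p under 0.05, and 0 by voom with 753), with 0 of the 9 at that unadjusted level.

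The rest of the pathway was followed in 3 lists. Of 18 Hippo kinases and scaffolds, 16 passed the filter, and 2 were called higher and 3 lower in H660, where 20.1% and 17.9% of all genes were, with a median line difference of −0.49 beside −0.0035 over all genes. NF2, which encodes the membrane scaffold merlin that promotes LATS activation, was at 19.1 ± 1.34 FPKM in C4-2B MDVR and 4.38 ± 0.224 in H660 (SD, n = 3). FAT1, an atypical cadherin upstream of the kinases, was at 2.71 ± 0.508 FPKM and listed at 0 in every H660 library. It thus passed the filter through 1 line only, which favours a difference. The kinase gene TAOK3 was at 9.45 ± 0.263 and 2.40 ± 0.0565 FPKM. MOB1A, a LATS cofactor gene, was higher in H660, at 10.6 ± 3.07 against 29.1 ± 3.82 FPKM.

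Of 12 partners and brakes of YAP, TAZ and TEAD, 9 passed the filter, and 1 was called higher and 2 lower in H660 (20.1% and 17.9% of all genes, median −0.38). AMOTL1, an angiomotin relative of AMOTL2, was at 1.15 ± 0.772 FPKM in C4-2B MDVR and 7.46 ± 0.978 in H660 (SD, n = 3). PTPN14, a phosphatase that binds YAP, was at 1.49 ± 0.308 and 0.0375 ± 0.0267 FPKM, and also passed the filter through 1 line only. STRN3, a subunit of the phosphatase complex that opposes MST kinases, was at 18.6 ± 4.03 and 5.57 ± 0.830 FPKM. VGLL1, a TEAD cofactor gene, had 0 fragments in all 6 libraries.

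Of the 22 other target genes 14 passed the filter, and 4 were called higher and 3 lower in H660 (20.1% and 17.9% of all genes, median −0.44). MYOF, F3, IGFBP3, FJX1 and FSTL1, 5 of these 7, passed it through 1 line only. That favours a difference, so the count is a description. CRIM1 and DOCK5 also passed through 1 line only. CRIM1 was at 1.06 FPKM in C4-2B MDVR and 0.156 FPKM in H660, and DOCK5 at 1.62 and 0.354 FPKM (limma adjusted p = 0.00167 and 0.000603). Both fell short of 2-fold in FPKM + 1 and were not called. GADD45A, a DNA damage response gene, was at 13.8 ± 8.91 FPKM in C4-2B MDVR and 120.02 ± 18.2 in H660, and MYOF, of membrane repair, at 0.0662 ± 0.0498 and 3.65 ± 0.238 FPKM (SD, n = 3). In the control libraries alone GADD45A was at 4.57 FPKM in C4-2B MDVR and 102 FPKM in H660. F3, which encodes tissue factor, was at 0.0127 ± 0.0113 and 1.66 ± 0.563 FPKM. FJX1, a Golgi kinase relative, went the other way, at 5.30 ± 1.58 FPKM and listed at 0 in H660. CYR61, a matrix protein gene and common YAP readout, overlapped between the lines, at 2.18 to 3.96 FPKM in C4-2B MDVR and 2.53 to 2.96 FPKM in H660, and CTGF, its relative, had 0 fragments in C4-2B MDVR and 0.273 to 0.449 FPKM in H660.

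After knockdown 0 members of these 3 lists passed in either line, with C4-2B MDVR medians of −0.04 for the kinases and scaffolds, 0.25 for the partners and brakes and 0.02 for the other targets, beside 0.02 over all genes. In C4-2B MDVR 7 of the 9 partners and brakes were above the control with both siRNAs, as 32% of all genes were. Count and share both use the deposited scaling, which raises these knockdown libraries, and the count per recovered total was not taken. BTRC, of the ubiquitin ligase that degrades YAP and TAZ, was at 3.55, 6.37 and 4.83 FPKM, and VGLL4, a competitor of YAP for TEAD, at 7.45, 9.47 and 10.4 FPKM. AMOTL1 was at 0.658, 2.04 and 0.748 FPKM. Of the other targets, GADD45A was at 4.57, 14.6 and 22.3 FPKM (1.78 ± 0.29, limma adjusted p = 0.544), IGFBP3, a binding protein of insulin-like growth factors, at 0.707, 1.08 and 3.39 FPKM, and CYR61 at 2.18, 3.96 and 3.26 FPKM (0.53 ± 0.18, limma adjusted p = 0.823). GADD45A is also a known target of p53. Among the kinases and scaffolds with the same sign in both siRNA libraries, the 3 largest differences were downward and did not pass. MAP4K4 was at 7.81, 4.58 and 6.60 FPKM, WWC3 at 2.73, 1.37 and 2.40 FPKM and FAT1 at 3.23, 2.69 and 2.21 FPKM. In H660 the list medians were −0.01, −0.003 and 0 in the same order, beside −0.01 over all genes. There 3 of the 9 partners and brakes were above the control with both siRNAs and 4 below (32.1% and 38.3% of all genes). GADD45A, CYR61, BTRC, VGLL4 and AMOTL1 changed by 0.32, 0.11, −0.003, −0.08 and −0.28 in H660, and IGFBP3 was listed at 0.

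Across the 6 libraries the protein-coding genes most like YAP1 by Pearson r of log2(FPKM + 1) included MKLN1, P4HA1, TAX1BP1 and WNT7B, each with r = 0.999. Like YAP1, each was highest in the C4-2B MDVR siRNA 1 library and lower in all H660 libraries. P4HA1, for example, was at 30.3, 57.2 and 35.7 FPKM in C4-2B MDVR and 5.46, 5.98 and 5.46 FPKM in H660. Those most like WWTR1 were LMBRD1, ABCC3, HIST1H2AE, CXCL8 and FAM135A (r from 0.999 to 1.00), and CXCL8, a chemokine gene, was at 14.4, 34.4 and 25.7 FPKM in H660 and at most 0.0271 FPKM in C4-2B MDVR. With 6 libraries in 2 lines, high values of r are common: 3512 of 12333 genes had r over 0.9 with YAP1 and 3452 with WWTR1. Genes at 0.999 or above were not counted, and the likeness is a description of these libraries.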

How the data were processed

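The values of the 6 libraries are FPKM, computed by the authors and used as deposited. The submitters' processing notes name HISAT, Cufflinks and the build hg18, without versions, and the annotation is not given in the sources used here. All 58735 gene IDs are in GENCODE 29 (GRCh38), which supplied names, exon lengths and coordinates. FPKM times exon length stepped in whole fragments (tolerance 0.05) in 100% of the 11224 to 13428 genes per library with at most 100 fragments, and fragment numbers were recovered from this step. Each library carries a further scaling factor of unknown source (0.92 to 1.08, the depth that the step implies over the recovered total), which was kept.

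The 15638 genes that reached a mean of 1 FPKM in either line were tested on the log2(FPKM + 1) scale by limma 3.58.1 (R 4.3.3), two-sided, with an intensity trend and Benjamini-Hochberg adjustment. Line and treatment as additive terms gave the line difference and the effect in both lines (3 residual degrees of freedom). A fit of the 4 groups gave each line's effect and their difference (2 residual degrees). Intervals at 95% are exact Poisson for levels and exact binomial for ratios, and cover counting error only. Alternatives covered the pseudocount, filter, scaling, voom on fragments, each library left out and the siRNA number as a block. Named genes were the 10 members, the list genes with the largest called line difference (up to 4 per list) or largest C4-2B MDVR difference of the same sign with both siRNAs (up to 3), and the 5 genes most like YAP1 and WWTR1, of which 1 is not reported here. CTGF, VGLL1 and the cell type markers named were chosen after their values were seen, as was CYR61 for the line comparison. Members and lists were chosen with earlier results of these data known.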

Additional observations from a re-analysis of the deposited data

Results flagged for a closer look

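For WWTR1 and LATS2 both knockdown libraries of 1 line lay on one side of the control and both of the other line on the other side, as they did for 19.7% of all genes. The values of WWTR1 were below the control in C4-2B MDVR and above it in H660, with a difference of the effect, H660 minus C4-2B MDVR, of 0.39 ± 0.26 on the log2(FPKM + 1) scale (SE, limma adjusted p = 0.985). Those of LATS2 were above the control in C4-2B MDVR and 2.72% to 3.88% under it in H660, with a difference of −0.47 ± 0.26 (limma adjusted p = 0.985). Neither difference passed the test, and the C4-2B MDVR values of WWTR1 rest on 13, 8 and 2 fragments.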

How the results depend on the processing

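Of the line differences of the 9 genes, 8 kept their direction and their call (adjusted p under 0.05 and 2-fold together) under the alternatives run on them, and TEAD4 did not, as given above. By adjusted p alone TEAD3 and AMOTL2 each passed in 1 alternative. With a mean of at least 5 FPKM required, 1776 genes were called higher in H660 and 2020 lower, and 1 member higher and 2 lower, since fewer genes were tested. Quantile normalization gave 2745 genes higher and 3043 lower. In both, unlike the main fit, more genes were called lower than higher. Leaving out 1 library gave 3105 to 3175 genes higher and 2718 to 2912 lower.

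Without a filter, limma called 33 genes higher and 818 lower after knockdown in C4-2B MDVR, 47 higher and 829 lower in H660 (1 of them ANKRD1, with 4 fragments in the control), and 684 higher and 688 lower for the difference of the effect. The cause was not tested. With at least 5 FPKM the counts were 3 higher in C4-2B MDVR, and 1 higher and 1 lower in H660. A pseudocount of 0.1, quantile normalization and the rescaling each called 1 gene higher in H660. Leaving out 1 library gave 0 to 31 genes higher and 0 to 18 lower in H660, the highest without its siRNA 2 library.

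Uncalled knockdown effects changed sign as follows. In C4-2B MDVR TEAD1 was at −0.048 with the rescaling and −0.097 by voom, and the difference of the effect of AMOTL2 at 0.018 and 0.053. Over the libraries left out, the effect in both lines ran from −0.060 to 0.33 for WWTR1, −0.16 to 0.022 for TEAD1, −0.052 to 0.26 for TEAD3, −0.41 to 0.11 for TEAD4 and −0.018 to 0.45 for LATS2. In C4-2B MDVR it ran from −0.054 to 0.098 for TEAD1, −0.011 to 0.52 for TEAD3 and −0.87 to 0.36 for TEAD4, and in H660 from −0.13 to 0.030 for TEAD3. The difference of the effect ran from −0.61 to 0.024 for YAP1, −0.43 to 0.79 for TEAD4 and −0.17 to 0.065 for AMOTL2. Without a line's control, its own effect and the difference could not be fitted.

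The replicate number is the siRNA number and pairs nothing else: siRNA 1 minus siRNA 2 correlated at r = −0.0044 between the lines (15638 genes). With it as a block, 3162 genes were called higher and 2831 lower in H660, 1 gene rose after knockdown in H660, and no call among the 9 genes changed.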
